A study of Mus musculus with 11 samples.

Results

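Expression of the major histocompatibility complex (MHC) and antigen presentation genes was examined in mammary glands bearing PN1a or PN1b lesions. The members were all probe sets whose annotated symbols begin with H2-, the prefix of the mouse MHC, together with single-gene probe sets of B2m, Cd74, Ciita, Tap1, Tap2, Tapbp, Cd1d1, Psmb8, Psmb9, Psmb10 and Ifi30. There were 62 such probe sets among the 12422 tested, of which 35 belonged to class I, 15 to class II and 10 to peptide processing and transport, while the other 2 both carried the symbol H2-Ke6, which names a gene of the same chromosomal region. PN1a and PN1b are premalignant lines of Trp53-null Balb/c mammary epithelium that arose as contralateral outgrowths of a single mouse, and PN1a was described as the line with high and PN1b as the line with low tumor-forming potential. Tissue of both lines was carried by serial transplantation in cleared fat pads of syngeneic wildtype females, so that the epithelium of both groups lacks p53 while stroma, vessels and immune cells come from the wildtype host. Whole glands of 5 PN1a and 6 PN1b samples were taken 8 weeks after transplantation, with no treatment in either group, and hybridized to Affymetrix MG_U74Av2 arrays. Each line stands for 1 outgrowth. The sources used here do not say that each sample is a separate mouse, and the titles of PN1b 1 to PN1b 4 look like ranges of animal numbers, so the p-values cover only the spread seen among the samples, which may be technical.

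MHC class I molecules are found on nearly all nucleated cells and consist of a heavy chain, encoded in Balb/c mice by genes such as H2-K1 and H2-D1, bound to beta-2 microglobulin. They present peptides cut by the proteasome and carried into the endoplasmic reticulum by the TAP transporter to CD8 T cells. Class II molecules are alpha and beta chain pairs that present peptides from endosomes to CD4 T cells, and in a resting tissue they are made mainly by dendritic cells, macrophages and B cells, although epithelial cells can make them under interferon gamma. In whole glands fewer cells of a type and less RNA per cell cannot be told apart.

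All values are log2 of the deposited intensity, and differences are PN1a minus PN1b on that scale. Calls needed both an adjusted p under 0.05 (Benjamini-Hochberg, over all probe sets, limma) and a fold change of at least 1.5. Median intensities of the samples ranged from 8.57 to 8.94 in PN1a, and the PN1b range was 8.88 to 9.51. The precision of every value is limited by how many arrays there are. PN1a 1 and PN1a 2 differed from the remaining samples. An 18S RNA control probe set (the middle region) read 119 and 132 in them against 3.07 to 15.2 elsewhere, and Fos, an immediate early gene, had a log2 intensity of 4.02 and 3.87 where the other samples had 7.94 to 9.29. Sample titles end in 3 different numbers, which the sources used here do not explain. All PN1a samples share an ending with PN1b 5 and PN1b 6, and this set of 7 is called the shared set below, while PN1b 2 and the group of PN1b 1, PN1b 3 and PN1b 4 carry others. Gene attribution in class I is uncertain, since 9 of its 35 probe sets carry several symbols and 23 have a suffix that marks probes shared within a family or otherwise not unique, and array sequences may come from another MHC haplotype than that of Balb/c mice.

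The upstream sequences of class II genes show what the genes have in common, and they are given for 3 class II genes, a class I gene and a transporter gene described below. Sequences are the 250 bases before the transcript start in RefSeq (GRCm38.p6), read on the gene's strand, and capitals mark matches to the motifs named below. For H2-K1 the window of the second of 2 transcript starts is shown.
H2-Aa (chr17:34287824-34288073, minus strand): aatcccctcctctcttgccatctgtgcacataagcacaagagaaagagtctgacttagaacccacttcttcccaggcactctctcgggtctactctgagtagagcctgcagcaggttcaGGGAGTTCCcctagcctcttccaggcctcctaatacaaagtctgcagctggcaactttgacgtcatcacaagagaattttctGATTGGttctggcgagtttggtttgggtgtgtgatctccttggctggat
H2-Eb1 (chr17:34305617-34305866, plus strand): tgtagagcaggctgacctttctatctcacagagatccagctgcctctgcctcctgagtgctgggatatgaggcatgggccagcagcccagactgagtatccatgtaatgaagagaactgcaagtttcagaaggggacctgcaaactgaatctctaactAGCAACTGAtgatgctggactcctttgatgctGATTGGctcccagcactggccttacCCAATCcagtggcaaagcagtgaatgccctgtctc
H2-DMb1 (chr17:34152941-34153190, plus strand): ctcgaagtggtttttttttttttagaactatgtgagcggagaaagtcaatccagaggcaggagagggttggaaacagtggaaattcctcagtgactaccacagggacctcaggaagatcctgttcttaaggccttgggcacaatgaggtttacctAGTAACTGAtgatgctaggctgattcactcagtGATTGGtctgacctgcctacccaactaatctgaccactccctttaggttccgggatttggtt
H2-K1 (chr17:34000334-34000583, minus strand): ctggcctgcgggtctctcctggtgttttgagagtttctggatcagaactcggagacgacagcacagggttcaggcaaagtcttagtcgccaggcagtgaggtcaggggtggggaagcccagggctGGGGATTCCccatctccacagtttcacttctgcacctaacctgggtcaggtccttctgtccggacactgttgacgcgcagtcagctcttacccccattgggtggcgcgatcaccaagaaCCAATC
Tap1 (chr17:34187306-34187555, plus strand): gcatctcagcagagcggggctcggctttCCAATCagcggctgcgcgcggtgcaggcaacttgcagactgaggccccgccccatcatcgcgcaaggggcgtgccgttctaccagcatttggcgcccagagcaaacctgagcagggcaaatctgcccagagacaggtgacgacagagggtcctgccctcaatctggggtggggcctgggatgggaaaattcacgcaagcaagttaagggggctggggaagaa
Of the 48 gene symbols of the members 31 had a window in the table, and H2-Ab1, H2-Ea, Cd74, Ciita, Tap2 and Cd1d1 were among those without. Motifs were searched on both strands in windows from 250 bases before to 50 bases after the start, and in the sequences shown no match overlapped another. The letters GATTGG, the Y box bound by the factor NF-Y, were found for 8 of 8 class II genes, 11 of 16 class I genes and 2 of 6 processing genes, against 16.1% of all 32851 windows. In H2-Aa, H2-DMb1 and H2-Eb1 the Y box began at -49, -62 and -60 from the start, and H2-Eb1 has a second one at -35 on the other strand. The X box, bound by the RFX complex, was searched as AGNAACNGA and was found for 4 of 8 class II genes (H2-DMb1, H2-Eb1, H2-Eb2 and H2-Oa), 0 of 16 class I genes and 5.35% of all windows. In H2-Eb1 and H2-DMb1 it began at -92 and -95, upstream of the Y box. The H2-Oa match differed in layout, at -4 on the other strand and downstream of its Y box at -44. A kappaB type motif, GGGNNTTCC, was found for 5 of 16 class I genes (H2-D1, H2-K1, H2-M2, H2-Q4 and H2-Q7), 2 of 8 class II genes (H2-Aa and H2-Oa) and 5.82% of all windows. An interferon-stimulated response type motif, GAAANNGAA, was found for 3 of 16 class I genes (B2m, H2-T22 and H2-T23) and 8.56% of all windows. The windows of Tap1 and Psmb9, which are transcribed in opposite directions from neighbouring starts, share 275 bases, and the Y box in the Tap1 sequence is the match found for Psmb9. A match is a description of the letters and not of a bound site. Only the exact patterns were searched, so a window without a match may still hold a variant of the motif.

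None of the 62 members was called between PN1a and PN1b in limma, against 2.49% of all probe sets tested (0.869% higher and 1.62% lower in PN1a), and the smallest adjusted p among them was 0.0756. At an unadjusted p under 0.05 there were 10 members, all with the higher mean in PN1a, of which 7 were in class II, 2 in processing and 1 in class I, against 7.65% of all probe sets in that direction and 11.3% in the other. The t-test of the methods on the same values called 0 members at its own threshold and 0 after Benjamini-Hochberg adjustment. The median difference was 0.61 in class II with 13 of 15 probe sets above 0, 0.34 in processing with 8 of 10 above 0 and 0.03 in class I with 19 of 35 above 0, while over all probe sets it was -0.01 with 48.6% above 0. The members' intervals are plotted by class.

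**Figure D1:**
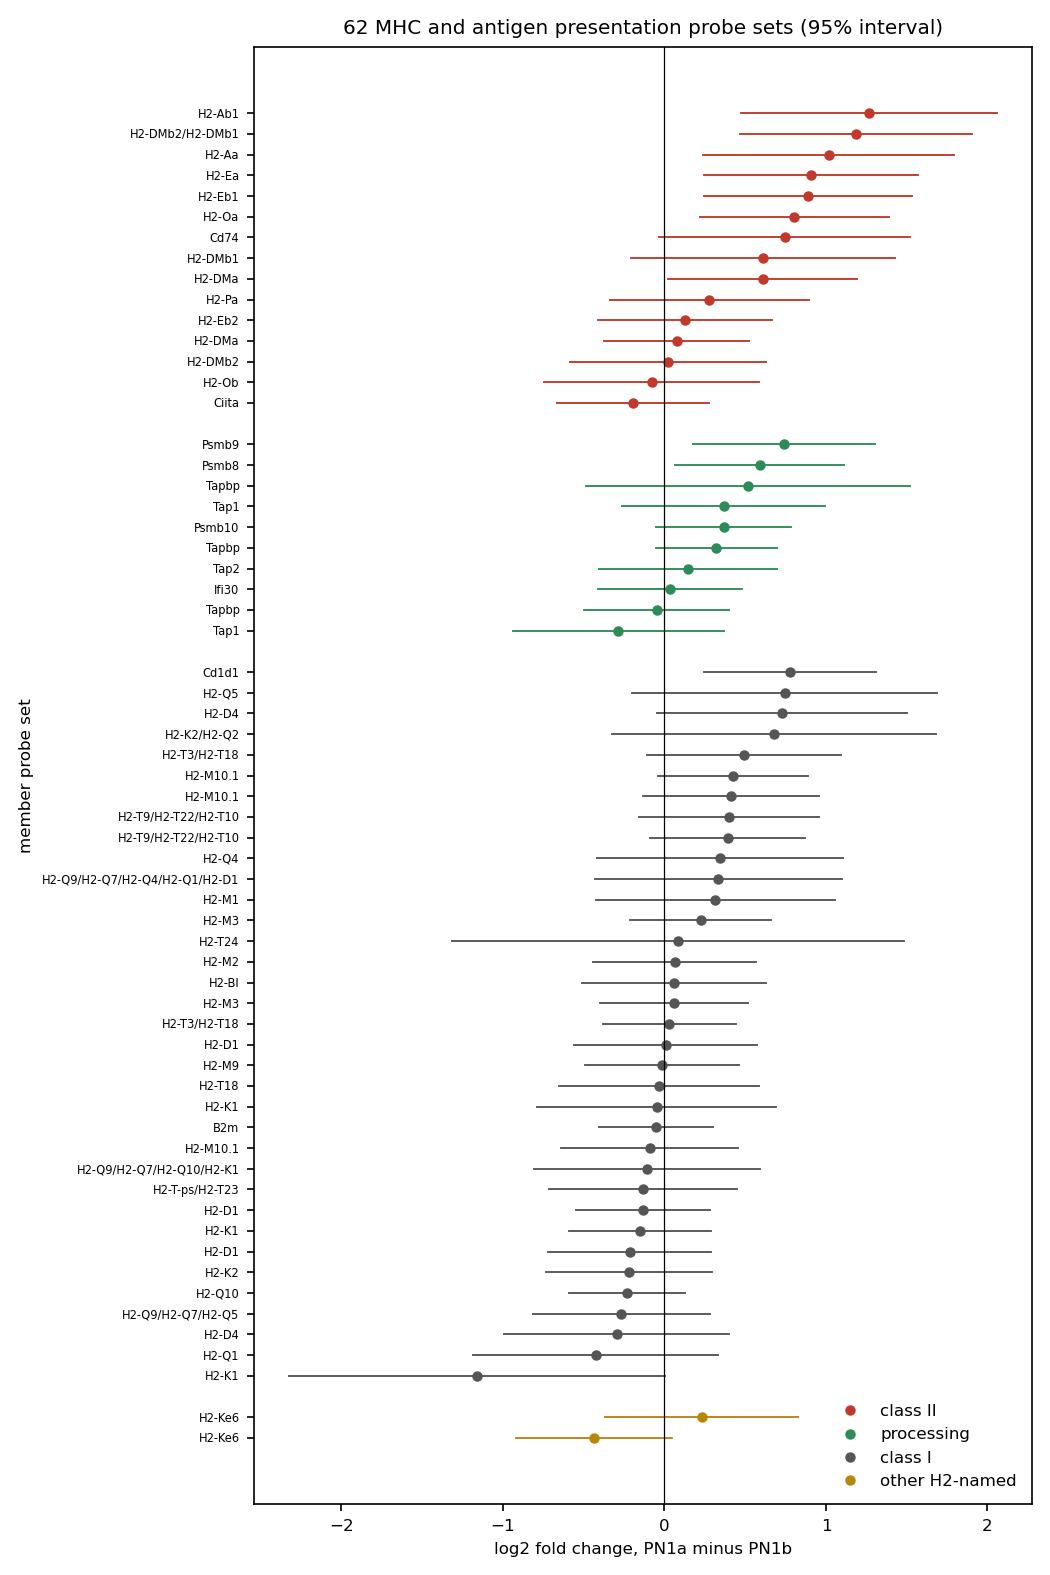
Log2 fold change (PN1a minus PN1b) of the 62 members with the 95% interval from limma, 1 point per probe set, grouped into class II, processing, class I and H2-Ke6. Most class II points lie right of 0, from -0.20 (Ciita) to 1.26 (H2-Ab1), and class I points lie on both sides, from -1.16 (H2-K1) to 0.78 (Cd1d1). Symbols joined by a slash share a probe set.

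Among the chains of the class II molecules all 4 measured genes of the H2-A and H2-E pairs had a higher mean in PN1a than in PN1b lesions, and none passed the test. H2-Ab1, the beta chain of H2-A, had 6.71, 6.17, 7.08, 7.18 and 6.24 in PN1a 1 to PN1a 5, and in PN1b the lowest value was 3.92, the median 5.78 and the highest 6.06. Every PN1a sample lay above every PN1b sample, which was so for 1 of the 62 members and for 1.58% of all probe sets in this direction, while 0 members and 2.38% of all probe sets had every PN1a sample below every PN1b sample. The difference for H2-Ab1 was 1.26 (SE 0.37, 95% interval 0.47 to 2.06), a fold of 2.40, with an adjusted p of 0.0837 from limma.

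H2-Aa, the alpha chain of the same molecule, had 8.19, 7.72, 8.41, 8.46 and 7.68 in PN1a and a lowest value of 5.63, a median of 7.42 and a highest value of 7.78 in PN1b. The groups overlapped through PN1b 5, which lay above PN1a 2 and PN1a 5, and the lowest values were those of PN1b 4 (5.63) and PN1b 3 (6.54). The difference was 1.02 (SE 0.36, adjusted p = 0.144 from limma). H2-Eb1, the beta chain of H2-E, had 7.47, 7.13, 7.67, 7.73 and 7.48 in PN1a against 5.44 to 7.13 with a median of 6.95 in PN1b, and the groups touched at 7.13 in PN1a 2 and PN1b 5. Its difference was 0.89 (SE 0.30, adjusted p = 0.127 from limma). H2-Ea, the alpha chain of H2-E, had 7.34, 6.80, 7.38, 7.50 and 7.38 in PN1a against 5.26 to 7.06 with a median of 6.53 in PN1b, and a difference of 0.91 (SE 0.31, adjusted p = 0.130 from limma). PN1a 2 was the only PN1a sample inside the range of PN1b. H2-Eb2, an H2-E beta chain gene whose probe set was dim, had a difference of 0.13 (adjusted p = 0.826 from limma).

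**Figure D2:**
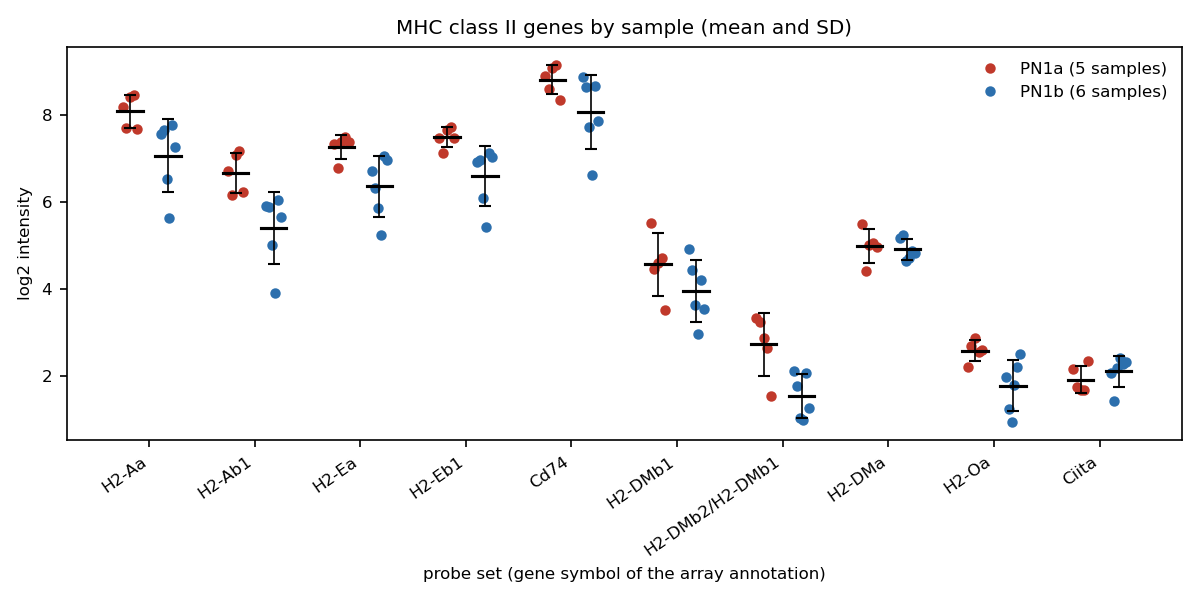
Log2 intensity of 10 class II probe sets in each sample (red, 5 PN1a samples; blue, 6 PN1b samples), with bars for the mean and SD. For H2-Aa, H2-Ab1, H2-Ea, H2-Eb1 and Cd74 the lowest 2 PN1b points are PN1b 4 and PN1b 3, and for H2-Ab1 alone all PN1a points lie above all PN1b points. The probe set shown for H2-DMa is 93092_at.

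Cd74, the invariant chain that guides class II molecules to endosomes, had 8.91, 8.60, 9.08, 9.16 and 8.35 in PN1a and 6.64 to 8.89 with a median of 8.26 in PN1b. The groups overlapped, since PN1b 1 (8.89), PN1b 5 (8.68) and PN1b 2 (8.64) lay within the PN1a range. The difference was 0.74 (SE 0.36, 95% interval -0.03 to 1.52, adjusted p = 0.285 from limma).

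The nonclassical class II genes encode H2-DM, which helps peptides onto class II molecules, and H2-O, which restrains H2-DM. The probe set shared by H2-DMb2 and H2-DMb1 (98034_at) had the smallest adjusted p of all members and was dimmer than the median of the array. It read 3.35, 3.24, 2.88, 2.66 and 1.55 in PN1a against 1.0 to 2.12 with a median of 1.53 in PN1b. PN1a 5 was the only PN1a sample within the PN1b range. The difference was 1.19 (SE 0.33, adjusted p = 0.0756 from limma), and without PN1a 5 it was 1.48 with an adjusted p of 0.0179 from limma, the single call of a member in any setting run. That fit left out the lowest PN1a sample and kept PN1b 4 (1.0) and PN1b 6 (1.28). These were low together with PN1a 5 for several probe sets described below, so the call rests on which samples are kept. With log2(value + 16), which shrinks differences of dim probe sets by construction, the difference was 0.28. Other probe sets of these genes differed less, with 0.61 for H2-DMb1 (98035_g_at, adjusted p = 0.415 from limma) and 0.02 for H2-DMb2 (101868_i_at, adjusted p = 0.979 from limma). H2-DMa had 0.61 on a dim probe set (162346_f_at, adjusted p = 0.246 from limma) and 0.08 on a brighter one (93092_at, adjusted p = 0.879 from limma).

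H2-Oa, the alpha chain of H2-O, had 2.22, 2.70, 2.89, 2.55 and 2.60 in PN1a against 0.96 to 2.52 with a median of 1.90 in PN1b, a difference of 0.80 (SE 0.27, adjusted p = 0.128 from limma). Its probe set was also dimmer than the median of the array. PN1a 1 was the only PN1a sample below the highest PN1b sample. H2-Ob, the beta chain of H2-O, had a difference of -0.08 and H2-Pa, annotated to the class II region, 0.28. Ciita, the class II transactivator, had 2.18, 1.75, 1.68, 1.68 and 2.35 in PN1a against 1.44 to 2.43 with a median of 2.23 in PN1b. Its groups overlapped and its difference of -0.20 (SE 0.22, adjusted p = 0.682 from limma) had the opposite sign to that of the class II chains, on a probe set dimmer than the median of the array.

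The brighter class II probe sets followed each other across samples. H2-Aa, H2-Ab1, H2-Ea, H2-Eb1 and Cd74 had pairwise correlations of 0.824 to 0.990 over the 11 samples with a median of 0.951, and a median of 0.949 after each group's mean was taken out, which are descriptions over points that share their arrays. Of the 7 class II members brighter than the median probe set, 6 had their lowest value in PN1b 4. Set against the average sample, the mean of all 15 class II members was 0.50, 0.15, 0.32, 0.38 and 0.14 in PN1a 1 to PN1a 5. It was 0.22, -0.11, -0.52, -0.91, 0.16 and -0.35 in PN1b 1 to PN1b 6, so that PN1b 1 and PN1b 5 lay within the PN1a range and PN1b 4 and PN1b 3 lowest.

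The class II median of 0.61 depended on which PN1b samples were used. Leaving out single samples gave 0.46 (lowest, without PN1b 4) to 0.80 (highest, without PN1b 1). Within the shared set, PN1b 5 and PN1b 6 against all PN1a samples, the class II median was 0.35 with 14 of 15 above 0, and with the title ending as a block the estimates are the same, since the shared set alone holds both groups. There the differences were 0.82 for H2-Ab1, 0.57 for H2-Aa, 0.41 for H2-Eb1, 0.26 for H2-Ea, 0.54 for Cd74 and 0.23 for H2-Oa, while the probe set shared by H2-DMb2 and H2-DMb1 (98034_at) had 1.06. Without PN1b 3 and PN1b 4, a choice made after the values were seen, the class II median was 0.30 with 11 of 15 above 0. In that setting H2-Ab1 had 0.79, H2-Aa 0.52, H2-Eb1 0.47, H2-Ea 0.50, Cd74 0.30 and 98034_at 0.92. Without PN1a 1 and PN1a 2 the class II median was 0.61 with 11 of 15 above 0, and H2-Ab1 had 1.42 and 98034_at 0.81.

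Macrophages are among the cells that make class II molecules, and most of their markers varied with these values. All 12 macrophage markers measured had a higher mean in PN1a, with a median difference of 1.16, and C1qb (2.20, adjusted p = 0.0456 from limma) and Cd68 (1.11, adjusted p = 0.0448 from limma) were called, against 0.869% of all probe sets in this direction. At an unadjusted p under 0.05 (limma) there were 9 of the 12, against 7.65% of all probe sets in this direction. C1qb was called in 5 and Cd68 in 8 of 22 alternatives (2 and 3 of the 11 that leave out a single sample), and neither was called within the shared set. The correlation with the class II mean over the 11 samples ran from -0.13 for Msr1, 0.13 for Cd14 and 0.29 for Itgam to 0.86 for Cd68. None of them was at the lowest intensity in any sample. Their summed intensity was 1380, 852, 1040, 1150 and 948 in PN1a 1 to PN1a 5 and 414, 599, 409, 320, 906 and 573 in PN1b 1 to PN1b 6. The sum is of linear intensities, so bright markers weigh most in it. Cd14 was on average the brightest, with a mean log2 intensity of 8.56 in PN1a and 8.36 in PN1b (difference 0.20). PN1b 5 was the only PN1b sample within the PN1a range of this sum, and PN1b 4 and PN1b 3, lowest in class II, were also lowest here, while PN1b 1 had a class II mean of 0.22 with a sum of 414. The part of macrophages in the class II values was not tested.

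**Figure D3:**
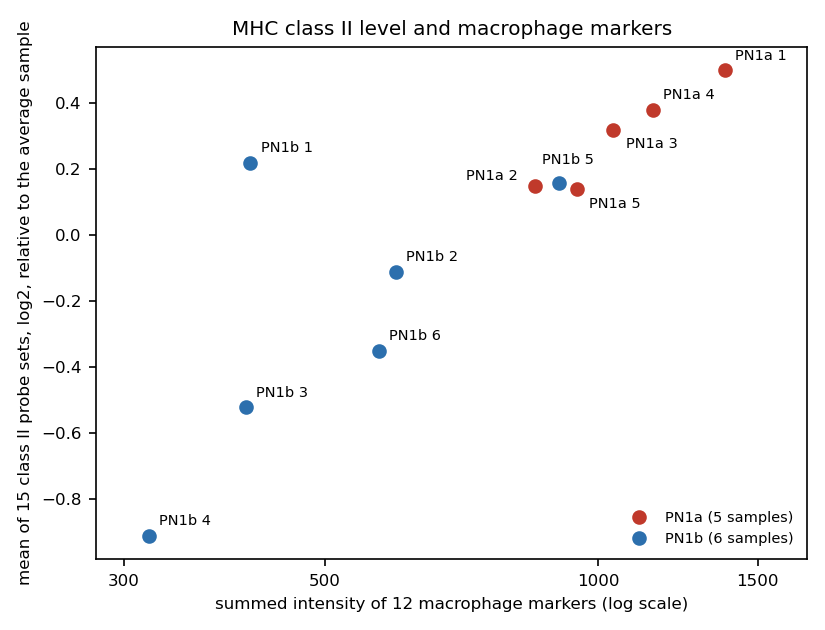
Mean of the 15 class II members relative to the average sample (log2, vertical) against the summed intensity of 12 macrophage markers (horizontal, log scale) in each sample. Cd14 was on average the brightest marker in the sum. PN1b 4 lies lowest on both axes and PN1a 1 highest, and PN1b 1 has a class II mean of 0.22 at a marker sum of 414. No test was made of the relation.

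Markers of other cells that present antigen differed less between the groups. Of 9 dendritic cell markers 6 had a higher mean in PN1a and 0 were called (median 0.33), with a summed intensity of 111 to 134 in PN1a and 80.3 to 115 in PN1b. At an unadjusted p under 0.05 (limma) there were 3 of them, all higher in PN1a, against 7.65% of all probe sets in this direction. Of 8 B cell markers 4 had a higher mean in PN1a and 0 were called (median -0.04; 0 at an unadjusted p under 0.05 from limma), with sums of 75.8 to 105 in PN1a and 65.5 to 125 in PN1b. All 7 pan-leukocyte markers had a higher mean in PN1a, with a median of 0.43, 0 calls (1 at an unadjusted p under 0.05 from limma) and sums of 244 to 378 in PN1a against 156 to 361 in PN1b. The lowest pan-leukocyte sums, 156 and 158, were those of PN1b 4 and PN1b 3. The log2 of the pan-leukocyte sum correlated with the class II mean over the 11 samples at 0.86, and that of the macrophage sum at 0.84. For the dendritic cell and B cell sums the correlations were 0.75 and 0.54, so a positive correlation was also seen for lists other than the macrophage one. These correlations span both groups and so include the difference between them. The cell source of the class II values was not tested. Glycam1 and Madcam1, of the lymph node stroma list, were called lower in PN1a (-4.16 and -0.82), against 1.62% of all probe sets in this direction. They stayed called in 11 and 3 of the 11 fits that leave out a single sample. The 3 genes of this list that were measured summed to 8.0 to 36.6 in PN1a and 75.5 to 232 in PN1b. Glycam1 was the brightest of them in PN1b, with a mean log2 intensity of 6.73 against 3.22 for Madcam1 and 3.155 for Cxcl13. Whether the Glycam1 signal came from nodes was not tested. The sources used here do not say whether lymph nodes were removed from the glands used for RNA, and the part of nodes in the class II values was not tested.

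Among the processing genes the immunoproteasome subunits, which replace their constitutive counterparts under interferon and alter the peptides made, had the smallest p-values, and none was called. Psmb9 had 5.28, 5.98, 5.94, 5.52 and 5.85 in PN1a against 3.98 to 5.46 with a median of 5.11 in PN1b, a difference of 0.74 (SE 0.26, adjusted p = 0.142 from limma). PN1a 1 alone of the PN1a samples lay within the PN1b range, and PN1b 4 was lowest. Psmb8 had 7.14, 7.45, 7.86, 7.48 and 7.57 in PN1a against 5.99 to 7.38 with a median of 7.0 in PN1b, a difference of 0.59 (SE 0.24, adjusted p = 0.209 from limma). PN1a 1 was again the only PN1a sample inside the PN1b range and PN1b 4 again lowest, and the correlation of Psmb8 with Psmb9 over the 11 samples was 0.947. Psmb10 had 5.77, 5.59, 5.32, 5.08 and 5.27 in PN1a against 4.63 to 5.32 with a median of 5.09 in PN1b, and the groups overlapped with a difference of 0.37 (SE 0.19, adjusted p = 0.329 from limma). Within the shared set the differences were 0.46 for Psmb9, 0.22 for Psmb8 and 0.32 for Psmb10.

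Tap1, a subunit of the peptide transporter that shares its upstream region with Psmb9, had 5.24, 6.18, 6.83, 6.45 and 6.60 in PN1a against 5.17 to 6.43 with a median of 5.97 in PN1b. PN1a 1 lay near the lowest PN1b sample while 3 PN1a samples lay above all PN1b samples, and the difference was 0.37 (SE 0.29, adjusted p = 0.538 from limma). Without PN1a 1 it was 0.62 and within the shared set 0.08. A second, dim Tap1 probe set (162278_r_at) had -0.28. Tap2, the other subunit, read 3.75 in PN1a 1 and 5.05 to 5.28 in the other 4 PN1a samples, against 4.65 to 4.84 with a median of 4.73 in PN1b. All PN1a samples but PN1a 1 lay above all PN1b samples, and the difference was 0.15 (SE 0.26, adjusted p = 0.801 from limma) with PN1a 1 and 0.43 (adjusted p = 0.195 from limma) without it.

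Tapbp (tapasin), which holds class I molecules at the TAP transporter, was measured by 3 probe sets that did not give the same pattern. Probe set 100154_at had 6.81, 7.35, 7.32, 7.16 and 7.11 in PN1a against 6.57 to 7.04 in PN1b, a difference of 0.32 (SE 0.17, adjusted p = 0.341 from limma), and PN1a 1 alone lay within the PN1b range. Probe set 102689_at had 0.52 (SE 0.46, adjusted p = 0.597 from limma) with 3.40 to 6.08 across PN1a samples against 3.31 to 5.14 across PN1b samples. This value was 0.24 without PN1a 2, 0.91 without PN1a 5 and -0.13 without both PN1a 1 and PN1a 2. Probe set 162104_f_at had -0.05 (SE 0.21, adjusted p = 0.930 from limma). The correlation of the last 2 over the 11 samples was -0.83. Ifi30, a thiol reductase of the endosome, had 0.03 (SE 0.21, 95% interval -0.41 to 0.48, adjusted p = 0.950 from limma) with overlapping groups.

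**Figure D4:**
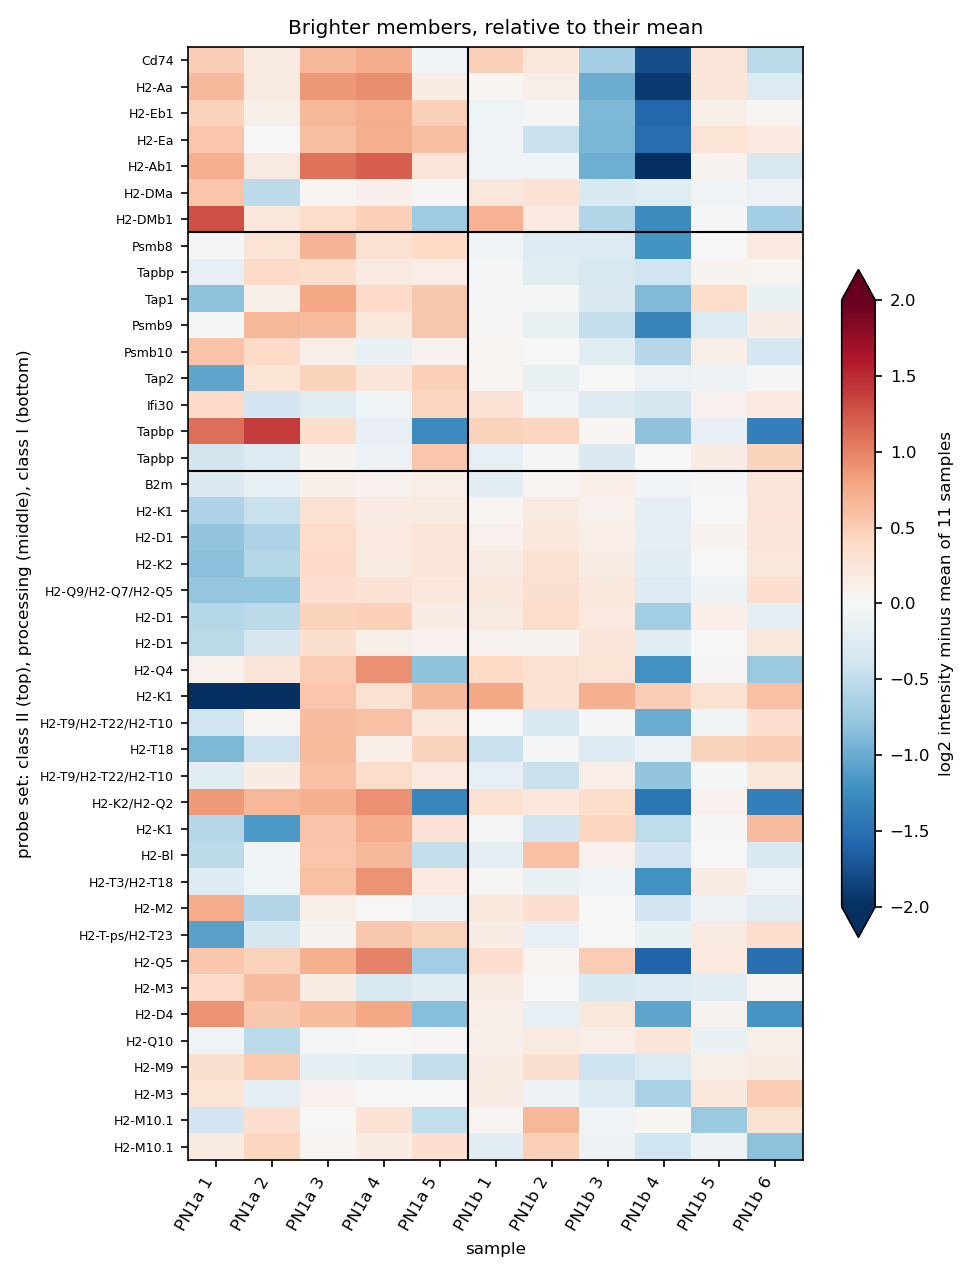
Log2 intensity of the 42 members brighter than the median probe set, relative to each probe set's mean over the 11 samples (colour, with the ends of the scale at -2 and 2; 1 column per sample), with class II at the top, processing in the middle and class I at the bottom. PN1b 4 is low in 6 of the 7 class II rows, PN1a 1 and PN1a 2 are low for H2-K1 and H2-D1, and PN1a 5, PN1b 4 and PN1b 6 are low for H2-K2/H2-Q2, H2-Q5, H2-D4 and H2-Q4.

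Genes of the class I molecules differed little between the groups as a class. B2m, the light chain, had 9.54, 9.65, 9.93, 9.90 and 9.95 in PN1a against 9.61 to 10.08 with a median of 9.83 in PN1b, and the groups overlapped with a difference of -0.05 (SE 0.16, 95% interval -0.40 to 0.30, adjusted p = 0.90 from limma). The lowest B2m values were those of PN1a 1 (9.54), PN1b 1 (9.61) and PN1a 2 (9.65). The 6 probe sets of H2-K1 and H2-D1 alone had a median of -0.14, with 1 of 6 above 0 and 0 called.

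These 6 probe sets were low in PN1a 1 and PN1a 2. Their mean relative to the average sample was -0.93 and -0.88 in these samples and -0.22 to 0.43 in the other 9. H2-K1 on 97700_at read 3.43 and 3.70 in PN1a 1 and PN1a 2 against 6.45, 6.20 and 6.55 in the other PN1a samples, and 6.19 to 6.67 with a median of 6.44 in PN1b. The difference of -1.16 (SE 0.54, 95% interval -2.32 to 0.01, adjusted p = 0.267 from limma) rested on these samples and was -0.02 without them. On 93120_f_at H2-K1 read 9.04 and 9.21 in PN1a 1 and PN1a 2 against 9.46 to 9.96 in the other 9 samples, with a difference of -0.15 (SE 0.21, adjusted p = 0.741 from limma) that was 0.15 without PN1a 1 and PN1a 2. On 97125_f_at it had -0.05 and 0.51 without them. H2-D1 had -0.21 (97540_f_at, SE 0.23, adjusted p = 0.675 from limma), -0.13 (97541_f_at) and 0.01 (101886_f_at), and without PN1a 1 and PN1a 2 these were 0.18, 0.11 and 0.37. Low values in these samples were not confined to H2-K1 and H2-D1. H2-K2 (93714_f_at) read 8.63 and 8.90 in PN1a 1 and PN1a 2 against 9.24 to 9.85 in the other 9 samples. The probe set shared by H2-Q9, H2-Q7 and H2-Q5 (98438_f_at) read 8.27 in both against 8.78 to 9.39. PN1a 1 and PN1a 2 also had low epithelial marker sums, 215 and 560 against 1160 to 1890 in the other 9, and the low Fos and high 18S RNA values given above. Their part in the class I values was not tested.

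A different set of samples was low for a group of class I probe sets named H2-D4, H2-Q5, H2-K2/H2-Q2 and H2-Q4, genes that in part lie in the Qa region of the MHC. This group was noticed in the values, so it is described without a test. H2-K2/H2-Q2 (97173_f_at) read 4.23 in PN1a 5, 4.08 in PN1b 4 and 4.17 in PN1b 6, against 5.62 to 6.45 in the other 8 samples. H2-D4 (101653_f_at) read 3.32, 3.12 and 3.0 in these samples against 4.01 to 5.08, H2-Q5 3.50, 2.59 and 2.68 against 4.25 to 5.19, and H2-Q4 6.02, 5.62 and 6.09 against 6.86 to 7.74. The low samples came from both groups. Pairwise correlations among these 4 probe sets were 0.871 to 0.978 over the 11 samples.

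Tapbp on 102689_at was also lowest in these samples, with 3.40, 3.87 and 3.31 against 4.51 to 6.08 in the other 8, and it correlated with these 4 probe sets at 0.665 to 0.843. Of the other Tapbp probe sets, 100154_at had 7.11, 6.57 and 7.03 in these samples, with PN1b 4 the lowest of all, and 162104_f_at had 4.48, 3.92 and 4.37, with PN1a 5 the highest of all. In class II, H2-DMb1 (98035_g_at) was also lowest in PN1a 5, PN1b 4 and PN1b 6, at 3.53, 2.97 and 3.56, with PN1b 3 next at 3.65. The dim H2-DMb2 probe set (101868_i_at) had 1.79, 1.66 and 1.13 there, with the next value at 1.89. The pattern was therefore not confined to class I and Tapbp. The differences between the groups were 0.73 for H2-D4 (SE 0.36, adjusted p = 0.294 from limma), 0.74 for H2-Q5 (SE 0.44, adjusted p = 0.387 from limma), 0.68 for H2-K2/H2-Q2 (SE 0.47, adjusted p = 0.465 from limma) and 0.34 for H2-Q4 (SE 0.35, adjusted p = 0.652 from limma). A second H2-D4 probe set, 101652_i_at, was dim and had -0.30.

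**Figure D5:**
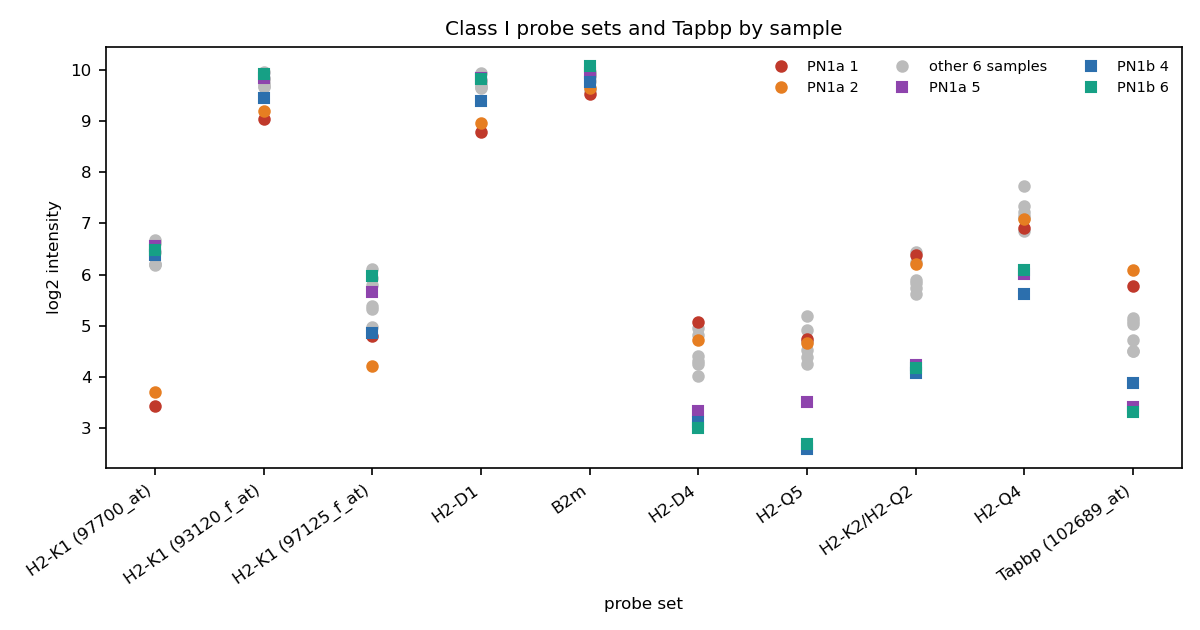
Log2 intensity of 9 class I probe sets and 1 Tapbp probe set in each sample, with PN1a 1 (red circle), PN1a 2 (orange circle), PN1a 5 (purple square), PN1b 4 (blue square) and PN1b 6 (green square) marked and the other 6 samples in gray. PN1a 1 and PN1a 2 are low for H2-K1 (97700_at), at 3.43 and 3.70, and the 3 samples drawn as squares are low for H2-D4, H2-Q5, H2-K2/H2-Q2, H2-Q4 and Tapbp (102689_at). The H2-D1 probe set shown is 97540_f_at.

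Most of the remaining class I members carry symbols of nonclassical genes, and 2 dim probe sets share symbols of the Q genes with H2-K1 (97174_r_at, -0.11) or with H2-D1 (95773_at, 0.33). Cd1d1, which presents lipids rather than peptides, had 3.12, 2.12, 1.96, 2.20 and 2.42 in PN1a against 1.06 to 2.09 with a median of 1.63 in PN1b. PN1a 3 alone lay within the PN1b range, and the difference of 0.78 (SE 0.25, 95% interval 0.24 to 1.31, adjusted p = 0.110 from limma) came from a probe set dimmer than the median of the array. The probe set of H2-T23, which encodes Qa-1, a ligand of receptors on natural killer cells, is shared with a pseudogene and had -0.13 (SE 0.27, adjusted p = 0.833 from limma). H2-M3, which presents N-formylated peptides, had 0.22 (102731_g_at) and 0.06 (102730_at), with overlapping groups. H2-M10.1 had 0.42, 0.41 and -0.09 on 3 probe sets, and the probe sets shared by H2-T3 and H2-T18 had 0.49 (96976_f_at, adjusted p = 0.368 from limma) and 0.03 (102692_s_at). Over the 8 H2-M probe sets the median was 0.14 with 6 above 0, and over the 7 H2-T probe sets it was 0.08 with 5 above 0. The 2 probe sets of H2-Ke6 had -0.44 and 0.23.

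Genes of the same pathways outside the members were read from 6 lists. Of 7 endosomal proteases and their inhibitor, which prepare peptides for class II molecules, all had a higher mean in PN1a with a median of 0.59, and 2 were called. These were Ctss, the protease that cuts the invariant chain, at 1.29 (SE 0.29, adjusted p = 0.0348 from limma), and Lgmn, an asparaginyl endopeptidase, at 1.19 (SE 0.29, adjusted p = 0.0494 from limma), against 0.869% of all probe sets called in this direction. Ctss was called in 8 and Lgmn in 7 of 22 alternatives, each in 3 of the 11 that leave out a single sample, and neither within the shared set, where they had 0.77 (adjusted p = 0.676 from limma) and 0.71 (adjusted p = 0.70 from limma). Both are also made in large amounts by macrophages. Of 16 genes of the interferon gamma response 2 had a higher mean in PN1a, the median was -0.31 and 0 were called (2 at an unadjusted p under 0.05 from limma). These 2 were the receptor chain Ifngr2 (1.26, adjusted p = 0.0853 from limma) and the chemokine Cxcl10 (-1.32, adjusted p = 0.205 from limma). The interferon list had the opposite sign of its median to that of class II, and its summed intensity was 362 and 443 in PN1a 1 and PN1a 2 against 760 to 1340 in the other 9 samples.

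None of the 5 class II transcription factor genes measured was called, with a median of 0.05, and Nfyb, a subunit of NF-Y, had -0.43 (adjusted p = 0.212 from limma) and was the 1 gene with an unadjusted p under 0.05. Of 14 constitutive proteasome subunits 13 had a higher mean in PN1a, with a median of 0.36 and 0 calls. At an unadjusted p under 0.05 (limma) there were 6, all higher in PN1a, against 7.65% of all probe sets in that direction. Among them were Psmb3 (0.74, adjusted p = 0.123 from limma) and Psma7 (0.61, adjusted p = 0.0990 from limma), while the median over all 14 subunits was 0.36. The median of the processing members, 0.34, was close to this value. Of 6 genes of peptide loading and the endoplasmic reticulum 5 had a higher mean in PN1a, with a median of 0.34, 0 calls and 2 at an unadjusted p under 0.05 (limma), the chaperones Canx (0.52, adjusted p = 0.224 from limma) and Pdia3 (0.42, adjusted p = 0.243 from limma). The 3 proteasome activator genes had a median of 0.22 with 0 calls and 0 at an unadjusted p under 0.05 (limma). Of markers of T cells, the cells that read these molecules, 1 of 9 had a higher mean in PN1a, with a median of -0.42 and 0 calls. At an unadjusted p under 0.05 (limma) there were 3, all lower in PN1a, against 11.3% of all probe sets in that direction. Of the 9 markers 8 were dimmer than the median probe set, and 1 had a sample at the lowest intensity. Their sums were 37.7 to 50.5 in PN1a and 37.4 to 74.4 in PN1b. Epithelial markers had a median of -0.36 over 8 genes, with 0 calls and 3 at an unadjusted p under 0.05 (limma), of which Krt19 (2.63) was higher in PN1a and Krt8 (-1.25) and Krt18 (-1.40) were lower, and endothelial markers -0.41 over 6 genes, with 0 calls and 1 at an unadjusted p under 0.05 (limma), with sums of 52.5 to 213 in PN1a and 140 to 218 in PN1b.

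The genes outside the members whose pattern over the 11 samples was most like the class II mean were Axin1, Npc2, Msn, Mrm3, Rnh1, Csnk1e, Cd99, Ccr1, Laptm5 and Apbb2, with correlations from 0.929 for Axin1 to 0.874 for Apbb2. The class II mean was itself higher in PN1a (0.30 against -0.25 in PN1b), so this choice of genes favoured a higher mean in PN1a. Calls among them are therefore no separate support. Csnk1e (1.53, adjusted p = 0.0175 from limma) and Rnh1 (0.91, adjusted p = 0.0262 from limma) were called higher in PN1a, against 0.869% of all probe sets. These calls held in 11 and 6 of the 11 fits that leave out a single sample. Npc2, a lysosomal cholesterol carrier, had 0.64, Laptm5, a lysosomal membrane protein of leukocytes, 0.43, and the chemokine receptor Ccr1 1.43 with an adjusted p of 0.0561 from limma. With each group's mean taken out, the correlations of the 10 genes with the class II mean were 0.773 to 0.875, in genes chosen for their correlation over all samples.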

How the data were processed

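RNA of whole mammary glands with PN1a (5 samples) or PN1b (6 samples) lesions was hybridized to MG_U74Av2 arrays (Affymetrix). Scans were summarized by the authors with the PM-MM model of dChip after quantile normalization, and the deposited values are linear intensities, 1 for each probe set in each sample. Neither step was repeated from the arrays, and the sources used here do not name the dChip version. Of 12488 probe sets 66 controls were left out, and 0.817% of intensities lay at the lowest value, 1. Groups came from the labels and symbols from the array annotation.

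Log2 of the intensity was compared with the limma package (version 3.58.1, R version 4.3.3), using lmFit and eBayes on all 11 samples with no covariate, two-sided and with Benjamini-Hochberg adjustment over 12422 probe sets, after the test was checked on simulated data. No pair of samples shared more than 1.24% of their values. Brighter means above the median over probe sets of the mean log2 intensity, 3.14. Motifs were searched in RefSeq windows (GRCm38.p6), and plots were made in matplotlib 3.10.9 under Python 3.11.15.

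The members and the lists (8 of cell type markers and 6 of pathway genes) were chosen with earlier results of these data known. Named with values are, in class I, class II and processing, the 5 members with the smallest p and the 2 with the highest mean, each gene that the membership names singly, the chains and class I genes listed in the rule (H2-Aa, H2-Ab1, H2-Ea, H2-Eb1, H2-DMa, H2-K1, H2-D1, H2-T23 and H2-M3), every probe set of a named gene, up to 3 genes of each list and the 10 genes most like the class II mean. H2-Q4, Fos and 18S RNA, other members given singly, and the remaining marker genes lie outside this rule and were picked with their values already in view. Alternatives tried were the t-test of the methods, the title ending as a fixed or random block or within the shared set, repeated quantile normalization, centring on the median, a filter at the median, log2(value + 16), eBayes with trend and robust, each sample left out, PN1a 1 and PN1a 2 left out, and PN1b 3 and PN1b 4 left out.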

Additional observations from a re-analysis of the deposited data

Results flagged for a closer look

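In 6 named probe sets a single sample lay far from the others of its group, by the gap to its nearest neighbour relative to the group's range. These were PN1a 5 for H2-D4 (101653_f_at, log2 intensity 3.32, the next sample 4.71), PN1a 2 for H2-Ea (6.80, the next 7.34), PN1a 1 for Tap2 (3.75, the next 5.05), PN1b 4 for the probe set shared by H2-T3 and H2-T18 (96976_f_at, 3.24, the next 4.30), PN1b 4 for Psmb8 (5.99, the next 6.90) and PN1b 2 for Ciita (1.44, the next 2.08). All 6 were low values. Chance flags about 1 in 20 groups, and 74 groups were examined.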

How the results depend on the processing

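No member was called under any alternative run except when PN1a 5 was left out, where 1 class II member, the probe set shared by H2-DMb2 and H2-DMb1, was called, so that leaving out single samples gave 0 to 1 for all members and for class II. PN1a 5 was the lowest PN1a sample of that probe set. Over all probe sets the count called was 309, against 18 within the shared set, 31 with the title ending as a fixed block, 65 without PN1b 3 and PN1b 4, 145 for the t-test of the methods after adjustment and 713 at its own threshold, 162 with a random block, 167 without PN1a 1 and PN1a 2, and 126 to 559 when single samples were left out, lowest without PN1b 3 and highest without PN1b 5. The class II median of 0.61 was 0.17 with log2(value + 16), which shrinks differences of dim probe sets by construction, and 0.46 to 0.80 when single samples were left out. The same ranges were -0.06 to 0.15 for class I and 0.25 to 0.39 for processing. Of 805 values of the 37 named member probe sets under alternatives 57 had the opposite sign to the main value, all for differences of at most 0.52, and the cause was not tested. When single samples were left out, B2m ranged from -0.10 to 0.013, H2-D1 (101886_f_at) from -0.13 to 0.15, H2-DMa (93092_at) from -0.051 to 0.22, H2-K1 (97125_f_at) from -0.24 to 0.23, H2-M10.1 (100304_at) from -0.25 to 0.034, H2-M3 (102730_at) from -0.066 to 0.17, H2-T3/H2-T18 (102692_s_at) from -0.046 to 0.16, Ifi30 from -0.067 to 0.14 and Tapbp (162104_f_at) from -0.20 to 0.038. Without PN1a 1 and PN1a 2 the values were 0.18 and 0.11 for H2-D1 (97540_f_at and 97541_f_at), 0.15 and 0.51 for H2-K1 (93120_f_at and 97125_f_at), 0.082 for B2m, -0.027 for H2-M3 (102731_g_at), and -0.13 and 0.15 for Tapbp (102689_at and 162104_f_at). Without PN1b 3 and PN1b 4 they were -0.16 for H2-M3 (102730_at), -0.079 for H2-T3/H2-T18 (102692_s_at), -0.12 for H2-D1 (101886_f_at), -0.04 for H2-DMa (93092_at) and -0.11 for Ifi30. With the title ending as a fixed block and within the shared set they were 0.16 for H2-M10.1 (100304_at), -0.33 for H2-M3 (102730_at), -0.12 for H2-T3/H2-T18 (102692_s_at), 0.28 for Tap1 (162278_r_at) and -0.12 for Ifi30, and with a random block -0.00053 for H2-M3 (102730_at). Repeated quantile normalization gave 0.0030 for H2-D1 (97541_f_at), and it and centring on the median gave 0.042 and 0.0083 for B2m, 0.027 and 0.011 for H2-K1 (97125_f_at), and 0.016 and 0.011 for Tapbp (162104_f_at). Of the called genes that are no members, Cd68 stayed called in 3 of 11 fits that leave out a single sample, C1qb in 2, Ctss, Lgmn and Madcam1 in 3, Rnh1 in 6, and Glycam1 and Csnk1e in 11, and none was called within the shared set, which holds 2 PN1b samples. No paired analysis was possible because sample numbers follow the order of deposition and pair nothing. Gene attribution of class I probe sets and the meaning of the title endings limit all these values.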
